A study of Homo sapiens with 20 samples.

Results

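Filamins and the actin crosslinking proteins of cell adhesion were followed here across knockdowns of the small RNA machinery in HEK293 cells, a human embryonic kidney line, and its derivative HEK293T. The 9 genes are FLNA and FLNC (filamins), ACTN1 and ACTN4 (alpha-actinins), TLN1 (talin), VCL (vinculin), ZYX (zyxin), MYH9 (the heavy chain of non-muscle myosin IIA) and TAGLN2 (transgelin 2). They are 9 of the 57087 genes in the files, and all 9 passed the filter on low counts in both experiments. The set was chosen by measured values, because FLNC was low in shDicer and FLNA in chromatin RNA labelled shDrosha. The values of these 9 genes in those 2 comparisons are therefore a description, given without a test.

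The mRNA-seq compared 3 libraries of wild type (wt) HEK293T with 3 of a line named HEK293 2B that carries a doxycycline-inducible shRNA against DICER1 (shDicer). Both groups received doxycycline at 3 µg/ml for 7 days. The chrRNA-seq, in which RNA bound to chromatin is sequenced as a proxy for nascent RNA, covered 2 libraries each of HEK293 wt, shDicer, shAgo2 and shDrosha. The shDicer and shAgo2 cells were stable recombinant lines given doxycycline (3 µg/ml, 72 h), whereas Drosha was targeted by transfection of an shRNA plasmid. Whether the wt and shDrosha cells of the chrRNA-seq received doxycycline is not given in the sources used here. No line with a scrambled shRNA was among the samples analysed here, so the effects of the shRNA and of the cell line cannot be told apart in shDicer and shAgo2. Nothing states that the replicates came from separate cultures, and p-values measure the spread between these libraries only.

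Filamins are long flexible dimers that join actin filaments into orthogonal networks and tie them to integrins and other membrane proteins. FLNA is the form found in most tissues, while FLNC is the filamin of skeletal and heart muscle. Alpha-actinin bundles actin filaments in parallel, and talin and vinculin link integrins to actin at focal adhesions, where myosin II pulls on the filaments and zyxin gathers under tension. Many of these genes are known targets of serum response factor (SRF), which binds the CArG box.

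The promoters of the 2 filamin genes that gave the set its name are shown because their values chose the set. FLNC (ENSG00000128591) lies on chromosome 7 of GRCh38, from 128830406 to 128859274 on the forward strand. FLNA (ENSG00000196924) lies on chromosome X, from 154348524 to 154374634 on the reverse strand. Each window runs from 250 bases before to 50 bases after the RefSeq start (GRCh38.p14), at chr7:128830156-128830455 on the forward strand and at chrX:154374585-154374884 on the reverse strand. Capitals mark GC boxes (GGGCGG, or CCGCCC on the other strand) and the CArG box.
FLNC: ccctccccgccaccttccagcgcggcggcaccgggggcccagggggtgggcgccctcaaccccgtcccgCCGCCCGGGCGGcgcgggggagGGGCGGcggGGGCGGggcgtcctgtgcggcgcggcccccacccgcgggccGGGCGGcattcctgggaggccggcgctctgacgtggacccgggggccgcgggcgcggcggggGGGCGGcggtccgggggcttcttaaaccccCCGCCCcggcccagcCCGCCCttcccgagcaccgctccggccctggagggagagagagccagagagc
FLNA: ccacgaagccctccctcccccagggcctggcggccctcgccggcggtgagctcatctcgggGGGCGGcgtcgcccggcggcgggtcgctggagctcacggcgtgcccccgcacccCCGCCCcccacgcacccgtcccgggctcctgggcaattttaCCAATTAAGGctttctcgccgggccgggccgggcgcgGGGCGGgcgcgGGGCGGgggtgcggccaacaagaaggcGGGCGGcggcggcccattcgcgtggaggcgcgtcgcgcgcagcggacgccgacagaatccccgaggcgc
Both windows are rich in GC, with 83.3% for FLNC and 78.3% for FLNA. The FLNC window holds 8 GC boxes and 42 CG dinucleotides, and the FLNA window 5 and 47, where the median over 35116 RefSeq promoters is 14 CG dinucleotides. A GC box occurs in 45% of all promoters of this length, and in 11 of the 15 windows of the 9 genes. A CArG box, searched on both strands, occurs in 1.29% of all promoters. FLNA has one, CCAATTAAGG, which begins 94 bases before the start, and an alternative start of ACTN1 has another, CCAAAAATGG. These letters are not in the FLNC window. In these 2 windows the CArG box does not overlap a GC box. Such matches describe the sequence and are not evidence of binding.

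The mRNA-seq libraries held 10216430 to 17215978 estimated counts, so that 3 counts, the limit used here, were 0.184 to 0.311 CPM (counts scaled to a common library total). The chrRNA-seq libraries held 17484067 to 21553760, and the limit was 0.149 to 0.183 CPM. Precision beyond this counting limit is set by the spread between replicates. Markers of the labelled cell type were present, with the neurofilament genes NEFL and INA, LIN28B, VIM and CDH2 at 1 CPM or more in every library of all 6 groups. The neurofilament gene NEFM was not at 1 CPM in every library of shDicer mRNA and of shAgo2 chromatin RNA. PAX2 was not at 1 CPM in every library of either mRNA group. Of 7 HEK293 markers, the summed level was between 139.9 and 173 TPM (a level corrected for transcript length and scaled to a fixed total) in wt mRNA and between 161 and 210 in shDicer mRNA. In chromatin RNA it was between 233 and 243 in wt and between 145 and 165 in the libraries of the other 3 labels. The 5 epithelial markers were higher than in wt as a sum in the 2 inducible lines, although not each alone. CDH1 was at 1 CPM or more in every wt mRNA library but not in every shDicer mRNA library. The 5 markers summed to between 14 and 17.3 TPM in wt mRNA and between 102 and 128 in shDicer mRNA, with KRT19 at 0 in wt. In chromatin RNA they summed to between 26.3 and 29.6 TPM in wt, between 92.5 and 95.5 in shDicer, between 83.0 and 86.0 in shAgo2 and between 23.2 and 25.5 in the libraries labelled shDrosha, and their part in the results was not tested. For 7 muscle markers the sums were between 1.93 and 2.49 TPM in wt and between 3.78 and 6.65 in shDicer mRNA, and between 53.7 and 66.5 in the chromatin libraries.

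The targeted genes gave an uneven check of the labels. DICER1 mRNA fell to 87.8 CPM in shDicer from 247 in wt, a log2 fold change of −1.49 (SE 0.0804, adjusted p = 1.28e-07, edgeR). In chromatin RNA, DICER1 had 108 CPM in shDicer and 122 in wt, which did not pass the threshold (adjusted p = 0.166, edgeR). AGO2 fell in shAgo2 by 0.62 on the log2 scale (SE 0.0832, adjusted p = 9.31e-05). DICER1 was higher in shAgo2 chromatin RNA than in wt, at 209 CPM, by 0.78 (SE 0.0926, adjusted p = 3.59e-05). DROSHA had 166 and 148 CPM in the libraries labelled shDrosha and 146 and 153 in wt. DROSHA RNA on chromatin was thus not lower there, and these 2 libraries are referred to as the libraries labelled shDrosha. The paper reports a successful Drosha knockdown by western blot, and it measured steady-state Drosha transcripts of the chrRNA-seq samples by qRT-PCR. Neither was measured here.

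Per length, TAGLN2 was the most abundant of the 9 genes in wt mRNA and FLNC the least. TAGLN2, a small actin-binding protein of the calponin family, had 41.6, 40.3 and 46.7 TPM in the 3 wt mRNA libraries. VCL followed with 17.5 ± 0.169 TPM (SD, n = 3), MYH9 with 13.2 ± 1.39, FLNA with 9.55 ± 3.02 and ACTN4 with 8.84 ± 1.79. The ranges of MYH9 and FLNA over the 3 libraries overlapped, although MYH9 was above FLNA within each library. FLNA and ACTN4 overlapped and changed order between libraries. TLN1 (5.36 ± 1.03 TPM) and ACTN1 (4.55 ± 0.836) overlapped too, with TLN1 above ACTN1 in each library, and ZYX (1.12 ± 0.149) and FLNC (0.506 ± 0.0404) stood below them, without overlap.

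In wt chromatin RNA the order was another one. MYH9 led with 160 and 151 TPM, followed by FLNA with 85.0 and 81.8. VCL (66.1 ± 1.99 TPM, SD, n = 2) and ACTN1 (65.0 ± 3.15) overlapped and changed order between libraries, while TLN1 (57.9 ± 0.548), ACTN4 (37.7 ± 0.724), TAGLN2 (34.4 ± 0.682), ZYX (15.9 ± 0.911) and FLNC (10.1 ± 0.380) each lay apart from their neighbours. TAGLN2, first in mRNA, was thus seventh here, and FLNC was last in both. Transcripts under 300 bases took between 44.6 and 58.4% of the TPM of a library. For the genes of the set, TPM levels were therefore used only to set genes beside each other within a library. The marker sums above were set beside each other between groups in TPM, and the part of these short transcripts in them was not tested. Counts scaled from TPM by length entered the comparisons between groups only as an alternative. The 2 experiments differ in cells, RNA fraction and library kit, and levels were not tested between them.

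**Figure D1:**
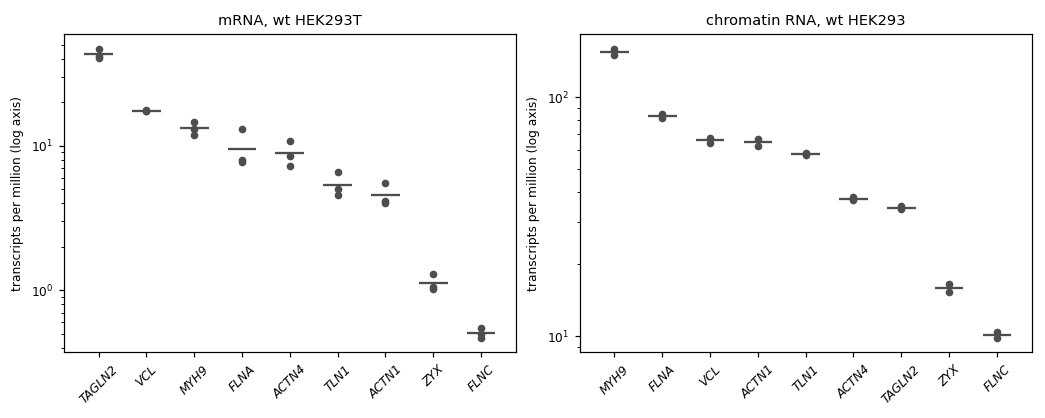
Levels of the 9 genes in wt libraries, in TPM on a log axis, for mRNA-seq (left, 3 libraries) and chrRNA-seq (right, 2 libraries). Points are libraries and bars their mean, and genes are ordered by the mean; TAGLN2 is first in mRNA at 42.9 and seventh in chromatin RNA at 34.4, and FLNC is last in both.

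The 2 experiments also differed in which transcripts carried the counts. In chromatin RNA, transcripts not annotated as protein coding (retained introns, nonsense-mediated decay and processed transcripts) held between 41.4 and 45.9% of the counts of ACTN4 in wt, against between 20.1 and 28.2% in wt mRNA. For VCL, vinculin, the share was between 33.8 and 39.0% on chromatin and between 4.89 and 6.24% in mRNA. The coding transcript VCL-201 took between 86.4 and 87.9% of VCL counts in wt mRNA but between 33.8 and 36.6% on chromatin. FLNC had 1 non-coding transcript of 3, with at most 1.65% of its counts in any library. Its full-length transcript FLNC-201, of 9188 bases, held between 82.6 and 85.3% of FLNC counts in wt chromatin RNA, between 70.2 and 71.4% in shAgo2 and between 66.3 and 69.3% in the libraries labelled shDrosha, with FLNC-202, of 9042 bases, taking nearly all of the rest. In shDicer the 2 libraries gave 50.2 and 100% to FLNC-201, from few counts. In mRNA the counts of FLNC were too few to divide, and the estimated share of FLNC-201 in wt ran from near 0 to 57.3%. FLNA-203 was the main FLNA transcript, with between 93.4 and 96.7% of FLNA counts in wt mRNA and between 53.1 and 58.7% in wt chromatin RNA.

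**Figure D2:**
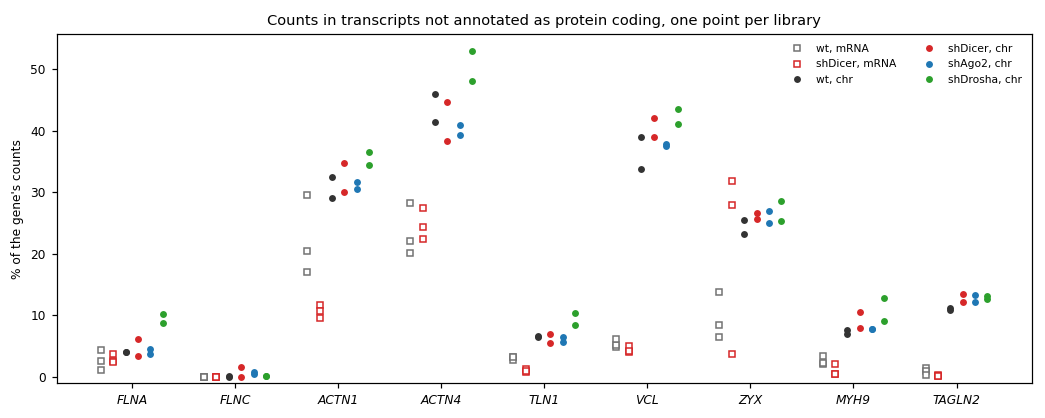
Share of each gene's counts in transcripts not annotated as protein coding (y axis, percent), 1 point per library, for mRNA-seq (open squares) and chrRNA-seq (filled circles). VCL has between 33.8 and 39.0% in wt chromatin RNA and between 4.89 and 6.24% in wt mRNA, and FLNC stays at or under 1.65% in every library.

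Sequence shared with other genes could split reads between copies. Of the 31-base subsequences of the TAGLN2 transcripts, 10.6% also occur in the pseudogene TAGLN2P1. The share was 7.50% for ACTN1, 5.31% for ACTN4 (the pseudogene ACTN4P1 and the paralogs ACTN1 and ACTN3) and 4.42% for FLNC. It was at most 1.97% for the other 5 genes, and 0 for ZYX.

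**Figure D3:**
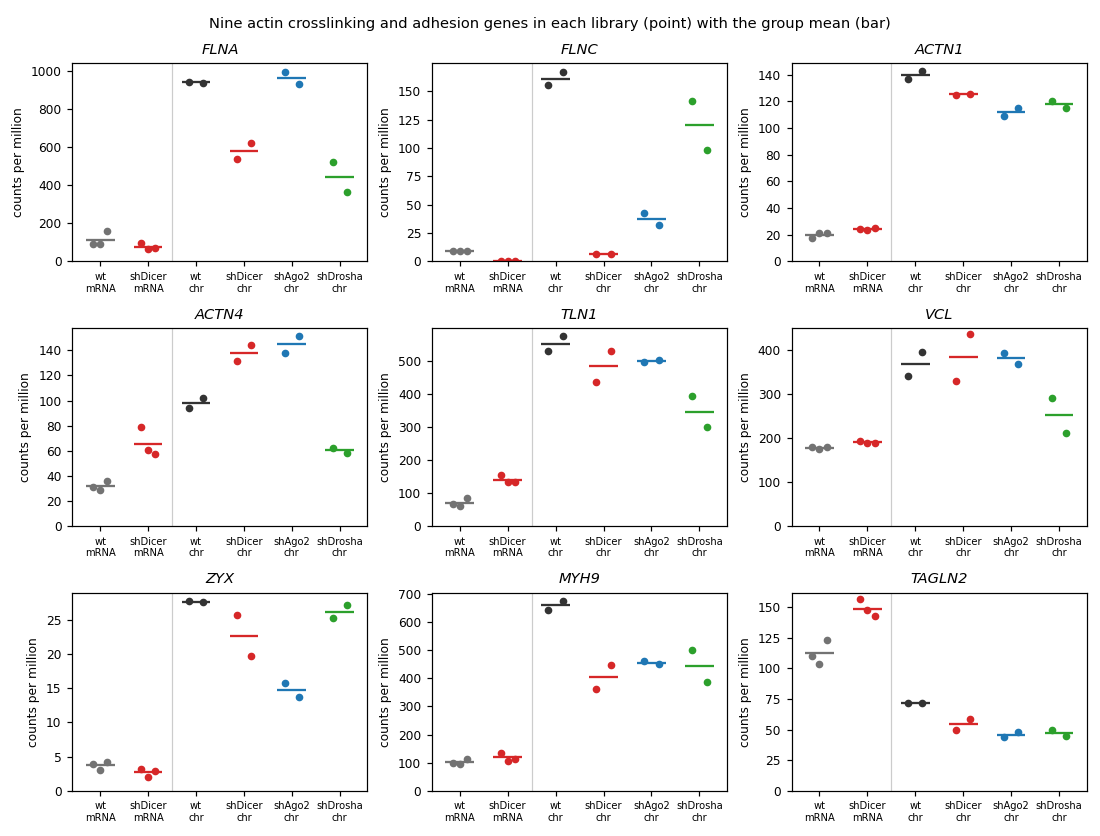
CPM of the 9 genes in each of the 14 libraries (points) with the group mean (bar), on linear axes that start at 0; chr marks chrRNA-seq. FLNC lies between 8.75 and 9.52 in wt mRNA and under 0.55 in shDicer mRNA, and FLNA is between 931 and 993 in the wt and shAgo2 chromatin libraries and at most 619 in those labelled shDicer and shDrosha.

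The mRNA-seq asked which steady-state transcripts differed after Dicer knockdown. FLNC, the muscle filamin, was nearly lost, while talin and ACTN4 transcripts were about doubled in CPM. FLNC had 8.75, 9.52 and 8.80 CPM in wt and 0.548, 0.227 and 0.358 in shDicer libraries. All 3 shDicer libraries lay far below all wt libraries, and they rest on 7, 3 and 6 counts, at or just above the counting limit. Of all tested genes, 31.6% were lower in shDicer mRNA without overlap. FLNC fell by 4.55 on the log2 scale (SE 0.263, adjusted p = 2.04e-07, edgeR), and the summed counts, 301 in wt and 16 in shDicer, give a ratio of 24.1 (95% exact binomial interval from 14.6 to 42.7, counting error only). The log2 fold change lay between −4.86 and −4.32 when each library was left out. Chosen for its chromatin RNA, FLNC was measured here in separate libraries, although of the same kind of shDicer cells. The set was chosen with earlier results of these data known, so this mRNA test is not taken as independent of the choice.

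TLN1, the talin that activates integrins, had 67.2, 60.2 and 83.6 CPM in wt and 154.5, 132 and 134 in shDicer mRNA. Every shDicer library was above every wt library. TLN1 rose by a log2 fold change of 0.996 (SE 0.116, adjusted p = 3.13e-05, edgeR). ACTN4 had 30.9, 28.5 and 35.9 CPM in wt and 78.7, 61.0 and 57.2 in shDicer mRNA, again without overlap, and rose by 1.05 (SE 0.133, adjusted p = 6.02e-05). The 50 tested genes around each of these loci were higher as well, with median log2 fold changes of 0.89 at ACTN4 and 0.69 at TLN1. With this median as an offset, ACTN4 had a log2 fold change of 0.16 (adjusted p = 0.343) and TLN1 of 0.31 (adjusted p = 0.0432), and neither passed. ACTN4 also missed the threshold without wt replicate 1 (adjusted p = 0.00138), and TLN1 with counts scaled from TPM by length (0.72, adjusted p = 0.00115). The fragment length implied by the deposited transcript values was between 149 and 153 bases in wt mRNA libraries. It was between 161 and 170 in shDicer mRNA libraries, and its part was not tested.

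The other 6 genes did not pass the threshold of 0.001 in mRNA. TAGLN2 had 109.9, 104 and 123 CPM in wt and 156, 147 and 143 in shDicer libraries, which did not overlap, with a log2 fold change of 0.41 (adjusted p = 0.00135, edgeR). It passed with DESeq2 (adjusted p = 3.64e-05) and in edgeR with no low-count filter (2.31e-07). FLNA had 90.3, 91.3 and 158 CPM in wt and 96.2, 65.3 and 70.5 in shDicer libraries. The FLNA groups overlapped, and the third wt library stood apart from the other two. The log2 fold change of FLNA was −0.55 (SE 0.209, adjusted p = 0.0433) with that library and −0.24 (adjusted p = 0.205) without it, and with no low-count filter FLNA passed (−0.49, adjusted p = 1.05e-07). The log2 fold changes were 0.27 for ACTN1 (adjusted p = 0.0654), 0.21 for MYH9 (0.0990), 0.09 for VCL (0.225) and −0.45 for ZYX (0.129). VCL was the steadiest of the set, between 176 and 193 CPM in all 6 libraries.

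Of the 9 genes, 2 were called higher and 1 lower in shDicer mRNA, 22.2% and 11.1%. Over all 15089 genes tested, 15.6% were called higher and 14.2% lower. The median log2 fold change of the 9 genes was 0.21, against 0.01 for all tested genes. Genes with at least 55% GC and a mean log2 CPM of at least 3 had a median of 0.18 in this comparison, and the part of base composition was not tested.

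**Figure D4:**
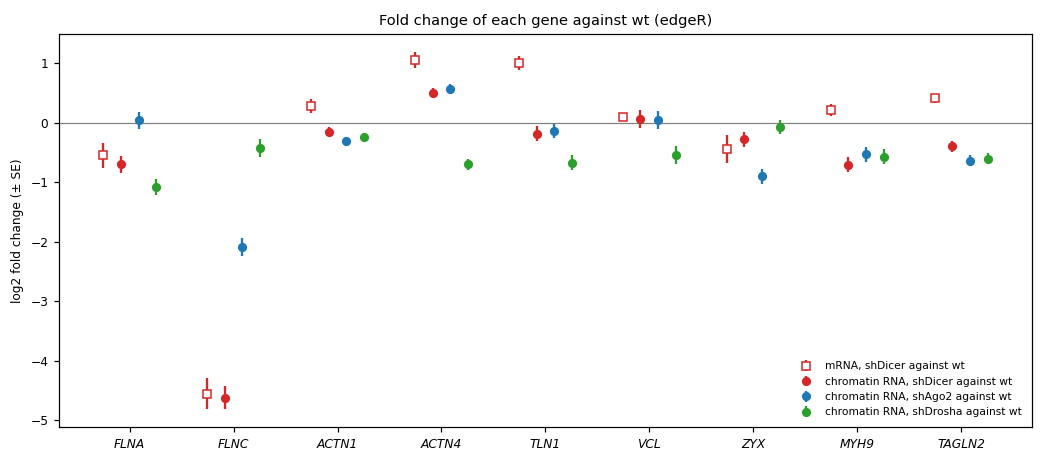
Log2 fold change (± SE, edgeR) of the 9 genes in each comparison with wt; open squares are mRNA-seq and filled circles chrRNA-seq. FLNC lies at −4.55 and −4.62 in shDicer and −2.09 in shAgo2, and FLNA at −1.08 in the libraries labelled shDrosha.

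In chromatin RNA the shDicer libraries chose FLNC, so the values of the set are described only. FLNC had 156 and 167 CPM in wt and 6.32 and 6.78 in shDicer, a log2 fold change of −4.62 (SE 0.193). The 120 and 128 counts behind the shDicer values are well above the counting limit, in contrast to mRNA, and the log2 fold change was close to that of mRNA. FLNA had 941 and 937 CPM in wt and 535 and 619 in shDicer (−0.70, SE 0.138), where the 50 neighbouring genes had a median of −0.34. MYH9, the myosin that contracts the filaments, had 643 and 676 CPM in wt and 362.5 and 446 in shDicer (−0.71, SE 0.123). ACTN4 had 94.2 and 102 CPM in wt and 132 and 144 in shDicer (0.49, SE 0.0838), beside a neighbourhood median of 0.48. The groups of these 4 genes did not overlap. TAGLN2 (−0.40), ZYX (−0.28) and ACTN1 (−0.15) were also below wt without overlap, whereas TLN1 (−0.19) and VCL (0.06) overlapped with wt. Of all tested genes, 33.9% were lower and 34.8% higher without overlap. At an adjusted p of 0.005, 3 of the 9 genes were called lower (FLNC, FLNA and MYH9) and 1 higher (ACTN4), beside 10.5% and 11.0% of 32874 tested genes. This comparison chose the set, and nothing is read from that count. The calls of FLNA and MYH9 were lost without wt replicate 1, wt replicate 2 or shDicer replicate 1. That of ACTN4 was lost without wt replicate 1 or shDicer replicate 2.

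The shAgo2 libraries show whether a second component of the pathway gave similar values. FLNC was intermediate, FLNA was at the wt level, and 5 of the other 7 genes passed the threshold of 0.005. FLNC had 43.0 and 32.5 CPM, below the 156 and 167 of wt and above the 6.32 and 6.78 of shDicer, with a log2 fold change of −2.09 (SE 0.159). FLNA had 993 and 931 CPM, which overlapped with wt (0.03, SE 0.137), beside a neighbourhood median of −0.51. Because these wt libraries were used to choose FLNC and FLNA, no p-value is given for them.

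ZYX had 27.7 and 27.5 CPM in wt and 15.8 and 13.6 in shAgo2, and fell by 0.91 on the log2 scale (SE 0.129, adjusted p = 0.000145, edgeR). TAGLN2 went from 71.3 and 71.8 CPM to 44.2 and 47.7, and fell by 0.64 (SE 0.0955, adjusted p = 0.000208). Both groups of values were apart by several times the gap between replicates. ACTN4 had 138 and 152 CPM in shAgo2 against 94.2 and 102 in wt, and rose by 0.56 (SE 0.0837, adjusted p = 0.000206). MYH9 had 461 and 450 CPM (−0.53, SE 0.123, adjusted p = 0.00425) and ACTN1 109 and 115 CPM against 136 and 142 in wt (−0.32, SE 0.0725, adjusted p = 0.00398), and both lost the call when any 1 of the 4 libraries was left out (adjusted p from 0.0205 to 0.0581). TAGLN2 missed the threshold without shAgo2 replicate 1 (adjusted p = 0.00616), and ACTN4 without wt replicate 1 (0.00679), without shAgo2 replicate 2 (0.00567) and when offset by its neighbours' median (0.0711). TLN1 (−0.14, adjusted p = 0.403) and VCL (0.05, adjusted p = 0.822) did not pass.

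Of the 7 genes other than FLNC and FLNA, 4 were called lower in shAgo2 and 1 higher, beside 12.1% and 12.5% of all tested genes. The median log2 fold change of the 9 was −0.32, against 0.00 over all tested genes. GC-rich genes of the kind described above had a median of −0.24 in shAgo2 and −0.16 in shDicer chromatin RNA, whose part was not tested. The actin linkers of the integrin tail, talin and vinculin, did not pass in shAgo2. TLN1 lay below wt there without overlap, as did 36.05% of all tested genes.

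A direct comparison of shDicer with shAgo2 chromatin RNA gave the size of the difference between the 2 inducible lines. FLNC differed most, with 6.32 and 6.78 CPM in shDicer and 43.0 and 32.5 in shAgo2, a log2 difference of −2.53 (SE 0.198, described without a p-value). FLNA had 535 and 619 CPM in shDicer and 993 and 931 in shAgo2, −0.74 (SE 0.138, adjusted p = 0.00605, edgeR), just above the threshold of 0.005, and under it with DESeq2 (5.3e-06) and in a fit of only these 2 groups (0.00145). ZYX had a log2 difference of 0.62 (SE 0.129, adjusted p = 0.0108), which did not pass here but did with DESeq2 (0.00481) and without shDicer replicate 2 (0.00258). FLNA passed without replicate 1 (0.000206) or 2 (0.000208) of those labelled shDrosha, which enter the shared estimate of the spread, and did not pass without any 1 of the other 6 libraries (from 0.00968 to 0.0656). ACTN1, ACTN4, TLN1, VCL, MYH9 and TAGLN2 had adjusted p-values of 0.149 or more. Of the 8 genes other than FLNC, 0 were called, beside 1.34% of tested genes called lower and 1.37% higher.

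In the libraries labelled shDrosha, whose DROSHA RNA on chromatin was not lower than in wt, all 9 genes lay below both wt libraries. FLNA, which was chosen by this comparison, had 522 and 365 CPM against 941 and 937 in wt, a log2 fold change of −1.08 (SE 0.139). FLNC had 141 and 98.6 CPM (−0.43, SE 0.149) and was nearer to wt than in the inducible lines. ACTN4 had 61.8 and 58.6 CPM (−0.70, SE 0.0861), so that it was below wt here and above wt in shDicer and shAgo2. The log2 fold changes of the others were −0.67 for TLN1, −0.61 for TAGLN2, −0.57 for MYH9, −0.55 for VCL, −0.24 for ACTN1 and −0.08 for ZYX. With counts scaled from TPM by length, MYH9 had −0.16, ACTN4 −0.40 and ZYX 0.02.

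At an adjusted p of 0.05, 5 of the 9 were called lower (FLNA, ACTN4, TLN1, MYH9 and TAGLN2) and 0 higher, and the background was 2.18% lower and 1.20% higher. FLNA was chosen by this comparison, and nothing is read from that count. Without wt replicate 1 or 2 the number called lower was 2. A share of 24.7% of all tested genes had both of these libraries below both wt libraries. The 2 libraries differed from each other in the long genes, with FLNA lower by 0.52 in the second on the log2 scale, FLNC by 0.52, VCL by 0.45, TLN1 by 0.40 and MYH9 by 0.37, where the median absolute gap over genes was 0.126. Without the first library the log2 fold change of FLNA was −1.37, and without the second it was −0.85, while that of FLNC was −0.71 and −0.19. GC-rich genes were lower as a class in these libraries: of 3692 genes with at least 55% GC and a mean log2 CPM of at least 3, 79.7% were below wt, with a median of −0.17, against 53.1% and −0.02 for all genes of that level. Of the 9 genes, 8 have at least 55% GC in their longest transcript, from 55.2% for ACTN1 to 63.7% for ZYX, and VCL has 45.1%. The part of base composition in the values was not tested.

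Beyond the set, 64 genes of adhesion and contractility were followed, grouped by role, of which 57 were tested in mRNA and 63 in chromatin RNA. In shDicer mRNA 14 were called higher and 12 lower (24.6% and 21.1% of those tested, beside 15.6% and 14.2% of all genes). The integrins, the transmembrane receptors that talin and filamin bind, stood out by count, with 6 of 8 called higher and 0 lower and a median log2 fold change of 1.19. ITGA6, a laminin receptor subunit, rose from 35.1 ± 2.71 to 120 ± 12.3 CPM (SD, n = 3), by 1.78 on the log2 scale (adjusted p = 1.43e-07, edgeR). ITGB1, the shared beta subunit, rose by 1.12 (adjusted p = 1.71e-06). TRIP6, a relative of zyxin, rose by 1.76 (adjusted p = 1.76e-05), and FERMT1, a kindlin that activates integrins with talin, by 1.72 (4.61e-05).

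Regulators of contraction were among the genes called lower. RHOA, the GTPase that drives myosin II, fell by 0.84 on the log2 scale, from 478 ± 7.95 to 267 ± 19.8 CPM (adjusted p = 3.85e-06, edgeR). TPM3, a tropomyosin, fell by 0.90 (adjusted p = 1.08e-06) and VASP, an actin polymerase partner of zyxin, by 0.84 (adjusted p = 0.000477). Of 10 tested genes of myosin II and its control, 4 were called lower and 2 higher. Among the partners and chaperones of filamin, HSPB8 fell by 1.81 in mRNA (adjusted p = 0.000392, edgeR), at the low levels of 2.39 CPM in wt and 0.674 in shDicer. In chromatin RNA it did not pass, with −1.11 in shDicer, −0.77 in shAgo2 and 1.24 in the libraries labelled shDrosha. BAG3, with which it clears damaged filamin, did not pass in mRNA (0.37, adjusted p = 0.117). The number called lower was 6 without wt replicate 1 or 3 and 7 without wt replicate 2 or shDicer replicate 2. SRF itself did not pass in any comparison, with log2 fold changes between −0.07 and 0.13 against wt.

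In chromatin RNA, 12 of the 63 were called higher and 10 lower in shDicer, and 12 higher and 12 lower in shAgo2. These are 19.0% and 15.9% of the list in shDicer, beside 11.0% and 10.5% of all genes, and 19.0% and 19.0% in shAgo2, beside 12.5% and 12.1%. Again 6 of 9 integrins were called higher and 0 lower in each, and the 2 comparisons share the wt libraries. ITGA6 rose by 1.34 in shDicer and 1.20 in shAgo2 (adjusted p = 9.28e-06 and 1.95e-05, edgeR). ITGA2, a collagen receptor subunit, rose by 0.90 and 1.01 (adjusted p = 2.97e-05 and 9.56e-06). ITGA5, of the fibronectin receptor, rose by 0.98 in shDicer (8.56e-06) and ITGB1 by 0.93 in shAgo2 (0.000249). PLS3, the bundling protein plastin 3, fell by 1.21 in shDicer and by 1.43 in shAgo2 (adjusted p = 1.39e-05 and 3.20e-06). MYH14, the heavy chain of myosin IIC, fell by 1.33 and by 1.11 (2.51e-05 and 7.55e-05). RHOA fell by 0.83 in shDicer (8.17e-05), and BCAR1, an adaptor of focal adhesions, fell by 0.79 in shAgo2 (0.00013). Leaving out 1 library took the number called higher as low as 5 in shDicer (without wt replicate 1 or 2) and 3 in shAgo2 (without wt replicate 1), and the number called lower to 5 (without wt replicate 2) and 6 (without wt replicate 1 or shAgo2 replicate 1).

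In the libraries labelled shDrosha, 5 of the 63 were called lower and 1 higher (7.94% and 1.59%, beside 2.18% and 1.20% of all genes). PLS3 fell by 0.98 on the log2 scale (adjusted p = 0.00294, edgeR), MYH14 by 0.70 (0.0238) and the cytoplasmic actin ACTG1 by 0.53 (0.0435), while ITGA5 rose by 0.43 (0.035). Without wt replicate 1 or wt replicate 2, PLS3 was the only one called lower and 0 were called higher. The number called lower was 2 without shAgo2 replicate 1 or 2 or the second library labelled shDrosha, and ITGA5 was not called without either shAgo2 library or the first one labelled shDrosha.

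**Figure D5:**
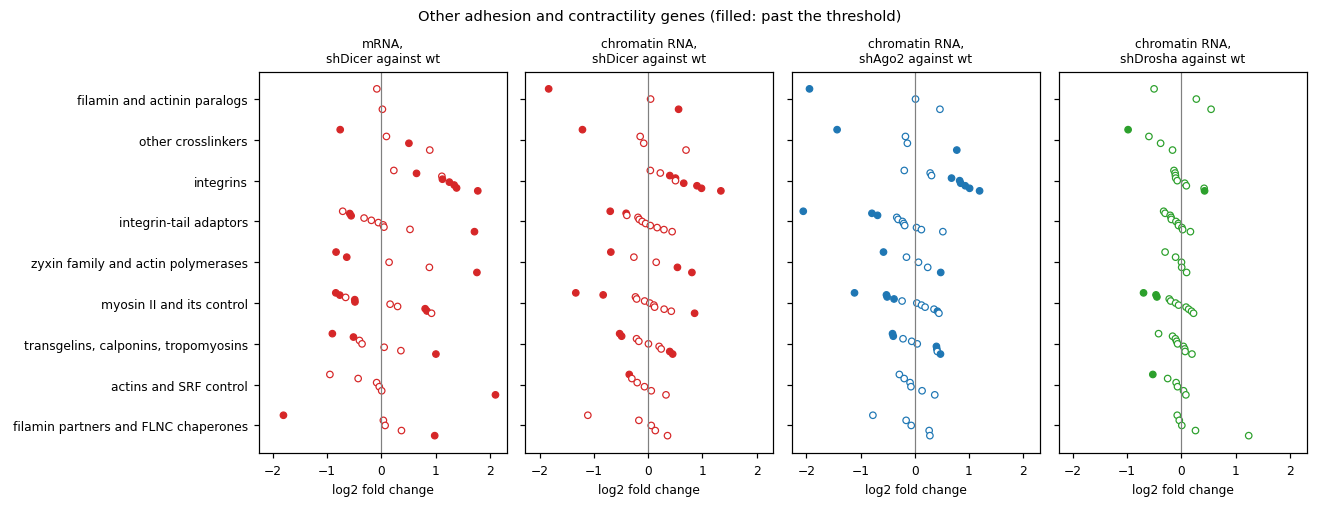
Log2 fold change of the other adhesion and contractility genes by role in each comparison with wt (x axis, edgeR; each point is a gene, filled where it passed the threshold of that comparison). Integrins lie to the right, with 6 called higher and 0 lower in mRNA of shDicer and in chromatin RNA of shDicer and shAgo2, and 1 called higher in the libraries labelled shDrosha.

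To describe which genes behaved most like the filamins, the log2 CPM profile over the 14 libraries, relative to the wt mean of each experiment, was compared with 11422 genes. The genes nearest to FLNC were GSTP1, a glutathione transferase (root mean square difference 0.446 log2 units), and the pseudogenes DUXAP10 (0.553) and DUXAP9 (0.594). GSTP1 had log2 fold changes of −3.72 in shDicer mRNA, −3.76 in shDicer, −1.76 in shAgo2 and −0.51 in chromatin RNA labelled shDrosha. The genes nearest to FLNA were CTNNB1 (beta-catenin, 0.314), BRSK2 (0.337) and ILF2 (0.361). Of these, CTNNB1 had −0.63, −0.26, 0.01 and −0.79 in the same order.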

How the data were processed

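Estimated counts and TPM were deposited by the authors for each transcript, from kallisto run in its strand-specific mode against Ensembl cDNA and non-coding RNA sequences, so intronic reads are counted only where an annotated transcript retains the intron. The labels name polyA RNA for mRNA-seq and the study's methods ribosomal RNA depletion. The TPM values the authors deposited are corrected for effective length. Small RNA-seq of 6 samples was not analysed here. The 9 genes and the gene lists were chosen with earlier results of these data known.

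Transcripts were matched to GENCODE 44 (GRCh38), which placed 193697 of 217082 (89.2%) and between 93.4 and 94.8% of the counts. Estimated counts were summed per gene and rounded. Genes passing filterByExpr (15089 in mRNA-seq, 32874 in chrRNA-seq) were tested with edgeR 4.0.16 (quasi-likelihood, TMM) in R 4.3.3, in 1 fit of 6 and 1 of 8 libraries, with Benjamini-Hochberg adjustment. The thresholds were the study's: 0.001 in mRNA-seq, and in chrRNA-seq 0.005 for shDicer and shAgo2 and 0.05 for shDrosha. The direct comparison of shDicer with shAgo2 was added here, at 0.005. CPM values are TMM-scaled. The scripts were tested on simulated data.

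Alternatives were other scaling factors, DESeq2 1.42.0, no low-count filter, counts scaled from TPM by length, coding transcripts only, 2-group fits, a replicate block, the median of the 50 neighbouring genes as an offset, a threshold of 0.05 and leaving out each library. In mRNA-seq, deviations from the group means of same-numbered wt and shDicer libraries correlated weakly, by 0.143, 0.120 and 0.254. The numbers may pair these samples. The mRNA tests printed above are unpaired, and pairing by number enters only in the replicate block. In chrRNA-seq the same correlations ran from −0.535 to 0.276, with 2 libraries per group, and paired nothing. No 2 libraries of a group were alike within counting noise (chi-square per degree of freedom from 2.37 to 25.2).

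Genes were named by a fixed rule: the 9, the targeted genes, in each comparison with wt the 3 highest and 3 lowest called genes of the adhesion list (mean log2 CPM 3 or more), and the 3 genes nearest in profile to each of FLNC and FLNA. HSPB8, BAG3, SRF and ITGB1 in mRNA, and TNS1, MYL6 and ROCK2, were named after their values were seen. The rule covers 1 further gene, which is not reported here.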

Additional observations from a re-analysis of the deposited data

Results flagged for a closer look

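In the adhesion list, 6 genes differed between shDicer and shAgo2 chromatin RNA, by the direct comparison of the 2 lines (edgeR, adjusted p-values below). Of the 63 tested, 5 were higher in shDicer (7.94%, beside 1.37% of all tested genes). The 1 gene called lower is 1.59% of the list, beside 1.34% of all tested genes. FERMT1, a kindlin, had 11.7 CPM in shDicer and 2.29 in shAgo2, a log2 difference of 2.35 (adjusted p = 5.99e-05), with log2 fold changes against wt of 0.29 and −2.06. TNS1, a tensin, differed by 0.85 (0.000404), ITGA5 by 0.70 (0.000864), TRIP6 by 0.57 (0.000876) and the myosin light chain MYL6 by 0.45 (0.00309), all higher in shDicer. ROCK2, a kinase of myosin II control, was lower in shDicer, by −0.59 (0.002). Groups of 2 or 3 libraries were too small to test for 1 library standing apart.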

How the results depend on the processing

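No called result changed direction under the alternatives run, although values near 0 changed sign (MYH9 in shDicer mRNA was −0.22 with length scaling), and FLNC was called lower in shDicer mRNA under every alternative run. Of the counts of the 9 genes called, those that moved by over 1.5 times follow. In chromatin RNA the main counts of genes called lower include FLNC or FLNA, whose values chose the set. Nothing is read from those counts about these 2 genes. Smaller moves were TAGLN2 as another gene higher in shDicer mRNA (DESeq2, no filter or 0.05), and in shAgo2 the loss of ACTN1 (library size only or length scaling) or of MYH9 (RLE factors or the offset), which left 4 lower. In shDicer mRNA, 1 instead of 2 was higher with counts scaled from TPM by length and 0 with the neighbourhood offset, and 2 instead of 1 were lower with no filter or at 0.05. In shAgo2, 0 instead of 1 was higher with the offset, and 3 instead of 5 were lower with coding transcripts only or the replicate block. In shDicer chromatin RNA, 0 instead of 1 was higher with coding transcripts only or the offset, and 5 instead of 3 were lower with the offset. In the libraries labelled shDrosha, 3 instead of 5 were lower with length-scaled counts or the replicate block. Between shDicer and shAgo2, 1 instead of 0 was higher with DESeq2, no filter, the crossed block or 0.05, and 2 instead of 1 were lower with library size only, DESeq2, no filter, length scaling, the crossed block, the offset, 2 groups only or 0.05. In the adhesion list, length scaling gave 7 lower instead of 12 in shDicer mRNA, 7 higher and 7 lower instead of 12 and 12 in shAgo2, and 2 higher and 2 lower instead of 1 and 5 in those labelled shDrosha. The offset gave 7 lower in shAgo2, 7 higher instead of 12 in shDicer chromatin RNA and 1 lower in those labelled shDrosha. In shAgo2, 19 were higher with 2 groups only and 21 at 0.05. Coding transcripts only gave 6 lower instead of 10 in shDicer chromatin RNA, and 0 higher and 3 lower in those labelled shDrosha, where library size only and no filter each gave 2 higher. Apart from settings that remove samples or genes, the cause was not tested.

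Leaving out 1 library gave, for the 9 genes, between 1 and 2 higher and 1 lower in shDicer mRNA, between 0 and 1 higher and 1 and 4 lower in shDicer chromatin RNA, between 0 and 1 and between 2 and 5 in shAgo2, 0 and between 2 and 7 in those labelled shDrosha, and between 0 and 1 and between 1 and 2 between shDicer and shAgo2. For the adhesion list it gave between 11 and 16 higher and 6 and 11 lower in shDicer mRNA, 5 and 13 and 5 and 10 in shDicer chromatin RNA, 3 and 13 and 6 and 12 in shAgo2, and 0 and 1 and 1 and 7 in those labelled shDrosha. A group then left with 1 library is assumed to vary like the others. For the 9 genes the chromatin ranges of genes called lower also count FLNC or FLNA, and nothing is read from them about either gene.

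The replicate block changed no call of the 9 genes in mRNA. In chrRNA-seq, where samples share only a number, the block gave 0 higher and 2 lower of the adhesion list in those labelled shDrosha, and 137 higher and 315 lower genes in all, where the fit without it gave 393 and 718. With the numbers of the libraries labelled shDrosha crossed, an alternative chosen after seeing the data, 1149 and 1962 genes were called, and 4 higher and 10 lower of the adhesion list. With 2 libraries a group, and at most 7 FLNC counts in a shDicer mRNA library, small differences were not detectable.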
